A study of Rattus norvegicus with 6 samples.

Results

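The genes described here are 31 genes of the oligodendrocyte lineage and of myelin, out of 19382 genes in a table of RNA-sequencing counts from rat brain tissue. They were matched by symbol to 32 listed names and placed in 4 groups by textbook stage: 6 precursor and lineage genes, 7 genes of committed cells, 15 genes of myelinating cells and 3 genes of the contact between axon and glia. The remaining name, Trf, matched no symbol in the table. The 6 libraries comprised 3 from SD rats that underwent hypoxia-ischemia (HI) of 2.5 h at an age of 7 days, a model of brain injury at birth, and 3 from rats labelled as controls. Neither the brain region, the delay between injury and sampling, the age or any sham procedure of the controls, nor whether a library came from 1 animal is given in the labels, and the p-values therefore reflect only the variation among the libraries at hand, which may be technical. No library is labelled as treated with Echinatin, the licorice compound of the study's title.

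Oligodendrocytes arise from proliferating precursors that carry the receptor PDGFRA, pass through a short committed stage marked by genes such as Gpr17, Bcas1 and Enpp6, and then make the proteins and lipids of the myelin sheath. In the rat the first postnatal weeks are the period in which this sequence unfolds in the forebrain, and cells of this lineage before myelination are known for their sensitivity to lack of oxygen and blood flow. The HI and control libraries were compared to ask which stages of the lineage differed in transcript level after the injury.

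Of the lineage genes tested, 1 of the myelinating stage and 1 of the committed stage differed between HI and control libraries. Mbp, which encodes the major basic protein of compact myelin, and Enpp6, a choline phosphodiesterase of newly formed oligodendrocytes, fell to 0.288 and 0.257 of the control level. Precursor genes, the committed-stage genes Gpr17, Bcas1 and Myrf, and the myelin enzyme gene Cnp had no difference that passed the test. Of 28 members with enough reads to be tested, 2 fell and 0 rose (edgeR quasi-likelihood F test, adjusted p below 0.05), that is 7.14% lower against a background of 7.04% of all 14959 tested genes called lower and 6.83% called higher. The share of members called is thus near that of all genes, and the results below concern single genes and not the lineage as a group. At an unadjusted p below 0.05 there were 5 members lower and 1 higher, where 17.4% of all tested genes were lower, 19.1% higher and 36.5% in either direction. DESeq2 called 6 of 30 members lower (20.0%) and 0 higher, where it called 13.6% of all genes lower and 13.2% higher. The limma-voom fit called 2 members lower and 0 higher, where it called 5.47% of all genes lower and 3.69% higher.

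Levels below are CPM, read counts divided by a library depth that is scaled by TMM factors, which compare 1 gene between libraries but not 1 gene with another. Total estimated reads ran from 13922663 to 14927469 per library, and a gene without a read could still have a level of up to 3 reads, which is 0.182 to 0.201 CPM in HI libraries and 0.221 to 0.227 CPM in control libraries. All 13 neuron and all 11 astrocyte markers searched had reads in every library labelled as brain tissue. Control 3 had the highest level among the controls for 22 of 28 tested members, against 39.7% of all tested genes, and control 1 the lowest for 19. Among the HI libraries, HI 2 was the highest for 14 of 28 members, against 22.3% of all tested genes. The groups did not overlap, with HI lower, for 8 of 28 members (28.6%) and 20.8% of all tested genes, and with HI higher for 1 member (3.57%) and 21.5% of all tested genes.

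Promoter windows are shown for 3 of the 6 members found to hold the letters CTGGCAC, out of 25 with a window. They are Enpp6, which fell, Mag, whose lower level did not pass the edgeR test, and Cnp, whose level was similar in both groups. Picked as holders of these letters, they do not stand for the members at large. Each window runs from 250 bases before to 50 bases after the gene start used in the RefSeq table of assembly GRCr8. Capitals mark the letters CTGGCAC on either strand, the core that the myelin regulatory factor MYRF is known to bind. The Enpp6 window is chr16:52026679-52026978 on the minus strand, the Mag window is chr1:95290995-95291294 on the minus strand, and the Cnp window is chr10:86011254-86011553 on the plus strand.
Enpp6: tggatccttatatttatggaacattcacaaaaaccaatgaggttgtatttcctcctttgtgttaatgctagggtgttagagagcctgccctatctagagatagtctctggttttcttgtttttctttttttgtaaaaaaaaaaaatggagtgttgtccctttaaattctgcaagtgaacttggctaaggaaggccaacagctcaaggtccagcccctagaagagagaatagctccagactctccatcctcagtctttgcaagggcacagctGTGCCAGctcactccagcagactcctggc
Mag: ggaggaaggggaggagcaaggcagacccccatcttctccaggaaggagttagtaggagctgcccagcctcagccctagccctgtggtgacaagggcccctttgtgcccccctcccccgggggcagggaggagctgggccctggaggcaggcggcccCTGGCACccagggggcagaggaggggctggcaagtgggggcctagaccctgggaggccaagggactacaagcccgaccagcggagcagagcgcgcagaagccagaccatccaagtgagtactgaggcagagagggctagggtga
Cnp: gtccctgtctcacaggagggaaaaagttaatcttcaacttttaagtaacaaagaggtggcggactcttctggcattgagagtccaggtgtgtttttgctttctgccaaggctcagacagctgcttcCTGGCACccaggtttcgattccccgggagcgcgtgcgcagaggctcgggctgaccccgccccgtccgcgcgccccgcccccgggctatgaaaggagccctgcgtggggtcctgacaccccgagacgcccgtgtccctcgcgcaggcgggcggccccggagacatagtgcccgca

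The match begins at base 22 of the transcribed part in Enpp6, where the letters lie on the opposite strand, and 94 and 124 bases before the start in Mag and Cnp. In Enpp6 it shares 1 base with an E-box, CAGCTG, the kind of site bound by basic helix-loop-helix factors such as OLIG2. Of the 25 member genes with a window in the table, 6 held CTGGCAC (Enpp6, Mag, Cnp, Mal, Olig2 and Opalin). These were 6 of 27 member windows, against 4.75% of 33469 windows in the table. For the motifs that follow, too, the count of member windows, out of 27, equalled that of member genes. Matches to CAGCTG were found in 7 member genes and 15.1% of all windows, to the SOX core ACAAAG in 6 and 18.8%, to a second SOX core, AACAAT, in 4 and 11.7%, to the nuclear receptor half-site TGACCT in 4 and 16.2%, and to CCAATC in 4 and 14.8%. These motifs were picked after the values of the members were seen and are descriptions of letters in a window. Members holding CTGGCAC include one that fell and one whose level was similar in both groups, while Mbp, which also fell, has a window without it.

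**Figure D1:**
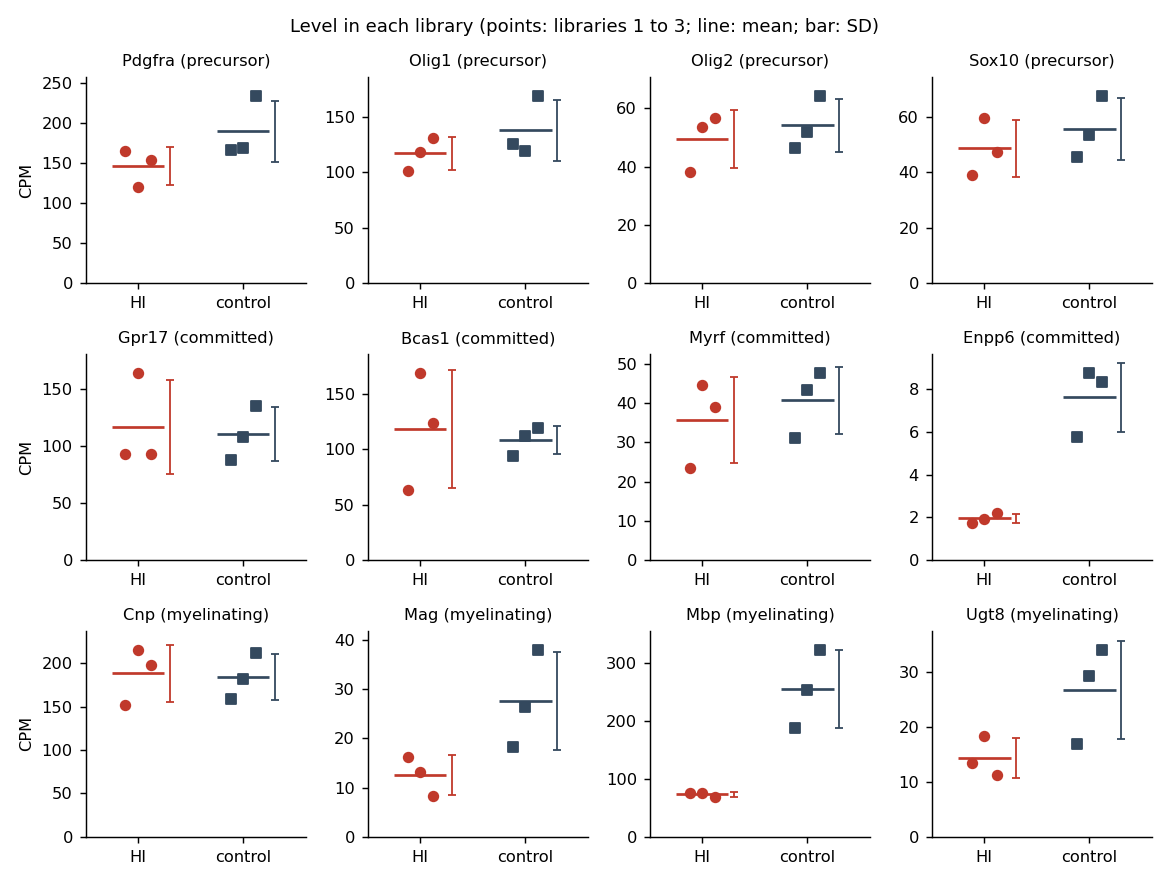
Levels in CPM of 12 members in each of 3 HI libraries (circles, left) and 3 control libraries (squares, right), with the mean as a line and the SD as a bar, on axes that start at 0. Mbp, Enpp6, Mag and, narrowly, Pdgfra are lower in every HI library than in any control. Olig1, Olig2, Sox10, Gpr17, Bcas1, Myrf, Cnp and Ugt8 overlap.

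None of the 6 precursor and lineage genes passed the test, and edgeR gave 0 with p below 0.05 before adjustment, as DESeq2 and limma-voom gave 0 calls. Their median log2 fold change was -0.16, beside 0.04 for all tested genes. Pdgfra, the receptor through which platelet-derived growth factor keeps precursors dividing, had 165, 120.2 and 154 CPM in HI libraries, against 167, 168 and 234 CPM in controls. These ranges did not overlap but lay close, and the log2 fold change was -0.37 ± 0.18 (SE, edgeR adjusted p = 0.192). The Pdgfra count of HI 2 was not whole, so some of its reads may be shared with another gene. Cspg4, the proteoglycan NG2 of precursors, had 72.8, 85.6 and 68.7 CPM in HI libraries, against 70.5, 61.3 and 97.8 CPM in controls. It overlapped fully, with a log2 fold change of -0.02 ± 0.19 (SE, edgeR adjusted p = 0.962).

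Both of these surface genes are also made outside the lineage, Pdgfra in fibroblasts of the vessel wall and meninges and Cspg4 in the mural cells around capillaries. The other 6 vascular fibroblast markers summed to between 171 and 594 CPM in HI libraries and between 40.9 and 229 CPM in controls, with 0 of the 5 tested among them called by edgeR, DESeq2 or limma-voom, 0 below an unadjusted p of 0.05, and Dpt too low to test. The 8 mural markers, led by Notch3 and Pdgfrb, summed to between 226 and 343 CPM in HI libraries and between 181 and 228 CPM in controls. All 8 log2 fold changes were positive, and edgeR called 1, Acta2, higher (12.5%, against 6.83% of all tested genes). At an unadjusted p below 0.05, 3 were higher, where 19.1% of all tested genes were. DESeq2 called 2 higher, where it called 13.2% of all genes higher, and limma-voom called 0. No marker of either list was at 0 in all libraries, and the part of these cells in the Pdgfra and Cspg4 levels was not tested.

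Olig1, Olig2 and Sox10, transcription factors that define the lineage, had lower means in HI libraries that did not pass the test. Olig1 had 101, 118 and 131 CPM in HI libraries, against 125, 119 and 169 CPM in controls. Olig2, which specifies the lineage, had 38.0, 53.5 and 56.8 CPM in HI libraries, against 46.5, 51.8 and 64.2 CPM in controls. Sox10, which drives both precursor and myelin genes, had 39.1, 59.6 and 47.3 CPM in HI libraries, against 45.7, 53.4 and 67.6 CPM in controls. All 3 overlapped between the groups, with log2 fold changes of -0.24 ± 0.17, -0.13 ± 0.19 and -0.19 ± 0.21 (SE, edgeR adjusted p = 0.350, 0.651 and 0.536). Nkx2-2, a homeodomain factor that promotes differentiation, averaged 11.9 ± 3.78 CPM in HI libraries and 7.25 ± 3.30 CPM in controls (SD, n = 3 each), and its log2 fold change of 0.71 ± 0.39 (SE) did not pass (edgeR adjusted p = 0.231). Proliferation markers, which these libraries cannot assign to a cell type, summed to between 187 and 334 CPM in HI libraries and between 165 and 180 CPM in controls. All 8 log2 fold changes were positive, and edgeR called 1, Mki67, higher (12.5%, against 6.83% of all tested genes). At an unadjusted p below 0.05, 5 were higher, where 19.1% of all tested genes were. DESeq2 called 4 higher, where it called 13.2% of all genes higher, and limma-voom called 0.

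Among the 7 genes of the committed stage, 1 fell (14.3%, against 7.04% of all tested genes) and 0 rose (against 6.83%). The stage did not move together: 4 log2 fold changes were negative and 3 positive, with a median of -0.19. Enpp6 had 1.74, 1.93 and 2.18 CPM in HI libraries, against 5.76, 8.76 and 8.31 CPM in controls. Every HI library lay below every control, and the log2 fold change was -1.96 ± 0.26 (SE, edgeR adjusted p = 0.0215). Behind these levels stand 26, 30 and 35.9 reads in HI libraries and 76, 119 and 111 reads in controls, a low count that was not whole in HI 3, where a read may be shared with another gene.

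Other genes of the same short window did not follow Enpp6. Gpr17, a receptor that marks committed precursors and restrains their maturation, had 92.6, 164 and 93.3 CPM in HI libraries, against 88.1, 108 and 135 CPM in controls. Bcas1, a protein of early myelinating cells, had 63.1, 169 and 124 CPM in HI libraries, against 94.2, 112 and 119.6 CPM in controls. For both genes HI 2 was the highest of all 6 libraries and the groups overlapped, with log2 fold changes of 0.08 ± 0.27 and 0.13 ± 0.33 (SE, edgeR adjusted p = 0.851 and 0.802). The ratio of Enpp6 to Bcas1 within a library was 0.0275, 0.0114 and 0.0176 in HI libraries, against 0.0611, 0.0783 and 0.0695 in controls, and that of Enpp6 to Gpr17 was 0.0188, 0.0117 and 0.0234 in HI libraries, against 0.0653, 0.0811 and 0.0616 in controls. A ratio of this kind does not depend on the scaling between libraries, and neither ratio overlapped between the groups. Both pairs were chosen after the values were seen, so no test is given.

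Of the committed-stage regulators none passed. Myrf, the membrane-bound transcription factor that switches on myelin genes, had 23.5, 44.7 and 39.0 CPM in HI libraries, against 31.2, 43.3 and 47.8 CPM in controls. The groups overlapped, with a log2 fold change of -0.19 ± 0.27 (SE, edgeR adjusted p = 0.641). Zfp488, a zinc finger factor that works with Olig2, averaged 5.84 ± 0.77 CPM in HI libraries and 8.48 ± 1.82 CPM in controls (SD, n = 3 each, edgeR adjusted p = 0.156). Nkx6-2, a homeodomain factor of differentiating cells, was near the lower limit of the test with 26, 13 and 20 reads in HI libraries, against 10, 6 and 12 reads in controls (edgeR adjusted p = 0.222).

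Tcf7l2, a Wnt effector expressed transiently in newly committed cells and also in neurons of the thalamus, was the most variable committed gene. It had 23.2, 31.9 and 16.4 CPM in HI libraries, against 174, 10.2 and 49.6 CPM in controls. The control group alone thus spanned the whole range, and control 1 set the control mean. The log2 fold change of -1.71 ± 0.89 (SE) did not pass (edgeR adjusted p = 0.213) and was -0.35 without control 1.

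**Figure D2:**
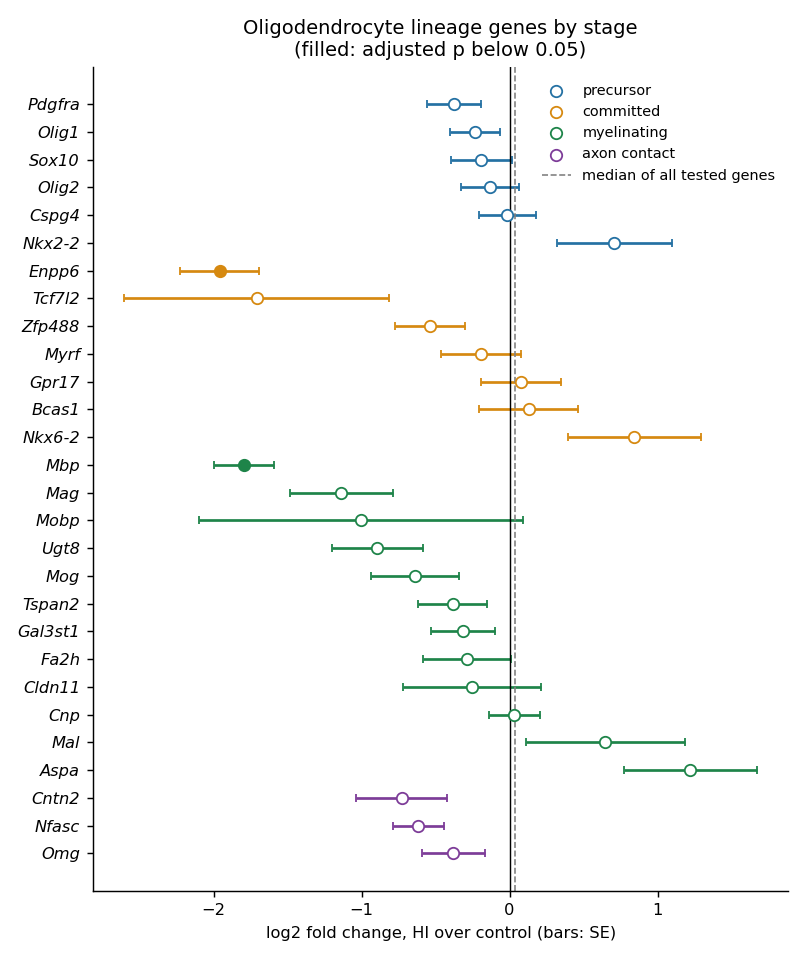
Log2 fold change of HI over control (horizontal axis, bars are SE) for the 28 tested members, grouped and coloured by stage, with filled circles for an adjusted p below 0.05 and a dashed line at the median of all tested genes, 0.04. Enpp6 at -1.96 and Mbp at -1.79 are the filled points, and precursor genes lie between Pdgfra at -0.37 and Nkx2-2 at 0.71.

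Myelinating-stage genes covered the widest range, from a fall of Mbp to a higher level of Aspa that did not pass. Of 12 tested, 1 fell (8.33%, against 7.04% of all tested genes) and 0 rose (against 6.83%). At an unadjusted p below 0.05 there were 3 lower and 1 higher, where 17.4% of all tested genes were lower and 19.1% higher. DESeq2 called 3 of these 12 lower and 0 higher, where it called 13.6% of all genes lower and 13.2% higher. In either direction the 4 of 12 below an unadjusted p of 0.05 stand beside 36.5% of all tested genes. The counts are small, and no test of the stage was made on these 12 genes. Their median log2 fold change was -0.35, beside -0.16 for precursor genes, -0.19 for committed genes and 0.04 for all tested genes. The median level per library relative to the control mean was -0.31, -0.31 and -0.57 (log2) in HI libraries and -0.37, -0.06 and 0.34 in controls. These ranges overlapped, since control 1 lay as low as HI 1 and HI 2, so the stage as a whole was not separated between the groups.

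Mbp had 74.8, 76.2 and 68.9 CPM in HI libraries, against 188, 253 and 322 CPM in controls. The HI libraries were close to each other and lay far below the lowest control. The log2 fold change was -1.79 ± 0.20 (SE, edgeR adjusted p = 0.0197). The count sums all transcripts of the gene, which include forms that start upstream and are made outside myelin.

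The calls of Mbp and Enpp6 rest on few libraries. Their adjusted p were 0.0789 and 0.0832 without HI 2, 0.0775 for each without control 1 and 0.0924 for each without control 2, and in these fits 0, 0 and 1 of all tested genes were called, against 2074 with all 6 libraries (edgeR). Their log2 fold changes over the 6 fits that leave out 1 library ran from -2.002 to -1.62 for Mbp and from -2.16 to -1.88 for Enpp6. Without HI 1 the members called lower were 4, with Nfasc and Gjc3 added, in a fit that called 3689 of all tested genes. Gjc3 failed the read filter with all 6 libraries. It passed here only through its control reads (8, 17 and 17, against 2 and 1 in HI 2 and HI 3), so no weight is placed on its call.

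The labels give no brain region, so whether the same tissue was sampled for each library is not known. Slc17a7, a transporter of excitatory neurons in cortex and hippocampus that was singled out after its values were seen, had 2.54, 63.3 and 51.1 CPM in HI libraries, against 474, 511 and 426 CPM in controls (edgeR adjusted p = 0.0529). Of all 13 neuron markers 5 were called lower and 0 higher. Among the 5 were Camk2a at 0.315 and Rbfox3 at 0.412 of the control level, while Gad1 and Gad2 had positive log2 fold changes that did not pass. The markers of the choroid plexus, given with transferrin below, and the level of Tcf7l2 varied widely within the groups. These libraries cannot tell a difference in the tissue sampled from a loss of neurons after HI. The part of either in the levels of Mbp and Enpp6 was not tested.

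Cnp, an enzyme gene that turns on early in the lineage and continues in myelin, had 152, 216 and 198 CPM in HI libraries, against 159, 182 and 212 CPM in controls. The groups overlapped, and the log2 fold change was 0.03 ± 0.17 (SE, edgeR adjusted p = 0.906), a sign that changed between fits. The ratio of Mbp to Cnp within a library was 0.493, 0.353 and 0.349 in HI libraries, against 1.18, 1.39 and 1.52 in controls. That ratio did not overlap, and neither did the ratio of Mbp to Myrf, with 3.19, 1.71 and 1.77 in HI libraries, against 6.01, 5.85 and 6.74 in controls. These pairs were chosen after the values were seen and carry no test.

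Other membrane proteins of myelin had lower means without passing the edgeR test. Mag, an adhesion molecule of the innermost myelin layer, had 16.2, 13.1 and 8.24 CPM in HI libraries, against 18.2, 26.4 and 38.0 CPM in controls. The groups did not overlap, and the log2 fold change was -1.14 ± 0.35 (SE, edgeR adjusted p = 0.0690, DESeq2 adjusted p = 0.0114). Mog, a protein of the outer myelin surface that appears late, averaged 2.05 ± 0.38 CPM in HI libraries and 3.19 ± 0.63 CPM in controls (SD, n = 3 each, edgeR adjusted p = 0.169), with groups that just failed to overlap. Tspan2, a tetraspanin of early myelinating cells, averaged 89.9 ± 24.1 CPM in HI libraries and 117 ± 23.0 CPM in controls (SD, n = 3 each, edgeR adjusted p = 0.279). Cldn11, the claudin of myelin tight junctions, varied widely within HI, with 10.2, 7.97 and 26.5 CPM, against 13.3, 21.1 and 18.9 CPM in controls (edgeR adjusted p = 0.721).

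Some late myelin genes had few reads. Mobp, a small basic protein of compact myelin, had 16, 33 and 7 reads in HI libraries, against 3, 14 and 80 reads in controls. Control 3 alone held most of the control reads, and the log2 fold change of -1.00 ± 1.09 (SE) turned to 0.89 without it (edgeR adjusted p = 0.540 with all libraries). Opalin, a membrane protein of mature cells, had 2 reads in each HI library, against 1, 2 and 1 reads in controls. Ermn, a cytoskeletal protein of mature cells, had 7, 14 and 8 reads in HI libraries, against 3, 13 and 9 reads in controls. With so few reads, no difference in Opalin or Ermn could be detected.

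Gjc3, a connexin of glia, was also too low for the main test, with 6, 2 and 1 reads in HI libraries, against 8, 17 and 17 reads in controls. The groups did not overlap. Without the filter on low counts the edgeR adjusted p was 0.0773, and DESeq2 gave an adjusted p of 0.0398, so whether its lower level in HI passed depended on the test.

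None of the 3 enzymes of myelin lipids passed the edgeR test. Ugt8, which makes galactosylceramide, had 13.5, 18.4 and 11.3 CPM in HI libraries, against 16.9, 29.3 and 34.1 CPM in controls. HI 2 lay above control 1, and the log2 fold change of -0.89 ± 0.31 (SE) passed with DESeq2 (adjusted p = 0.0279) but not with edgeR (adjusted p = 0.0896). Gal3st1, which turns galactosylceramide into sulfatide, averaged 5.84 ± 0.50 CPM in HI libraries and 7.27 ± 1.35 CPM in controls (SD, n = 3 each, edgeR adjusted p = 0.330). Fa2h, the fatty acid hydroxylase of myelin lipids, averaged 5.36 ± 1.16 CPM in HI libraries and 6.54 ± 1.81 CPM in controls (SD, n = 3 each, edgeR adjusted p = 0.516).

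In the other direction, Aspa, which splits N-acetylaspartate and so supplies acetate in oligodendrocytes, had 3.48, 4.56 and 7.33 CPM in HI libraries, against 1.59, 1.55 and 3.44 CPM in controls. The lowest HI library was just above the highest control, and the log2 fold change of 1.22 ± 0.45 (SE) did not pass (edgeR adjusted p = 0.104). Mal, a proteolipid of myelin that sorts membrane proteins, averaged 2.03 ± 1.20 CPM in HI libraries and 1.30 ± 0.46 CPM in controls (SD, n = 3 each, edgeR adjusted p = 0.416). Neither Aspa nor Mal followed Mbp.

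Lower Mbp and Enpp6 could come with fewer cells of the lineage or with less of these RNAs per cell, and tissue libraries cannot tell these apart. The levels were also given relative to the geometric mean of Olig1, Olig2 and Sox10 in the same library, a measure added after the data were seen. Precursors express these 3 genes too, so the measure cannot tell a loss of later cells alone from less RNA per cell. On that log2 scale Mbp stood at 0.49, 0.07 and -0.03 in HI libraries, against 1.54, 1.88 and 1.84 in controls, a difference of -1.57. Enpp6 stood at -4.94, -5.23 and -5.01 in HI libraries, against -3.48, -2.98 and -3.44 in controls, a difference of -1.76. Neither gene overlapped, and both differences were close to those from the scaled counts. Cnp stood at 1.51, 1.58 and 1.49 in HI libraries, against 1.30, 1.40 and 1.23 in controls, a difference of 0.21 with no overlap, while Mag at -0.94 overlapped and Ugt8 at -0.67 did not. Other members without overlap were Gjc3, at -2.57 with few reads, and Nkx2-2 and Aspa, which were higher in HI at 0.93 and 1.45.

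**Figure D3:**
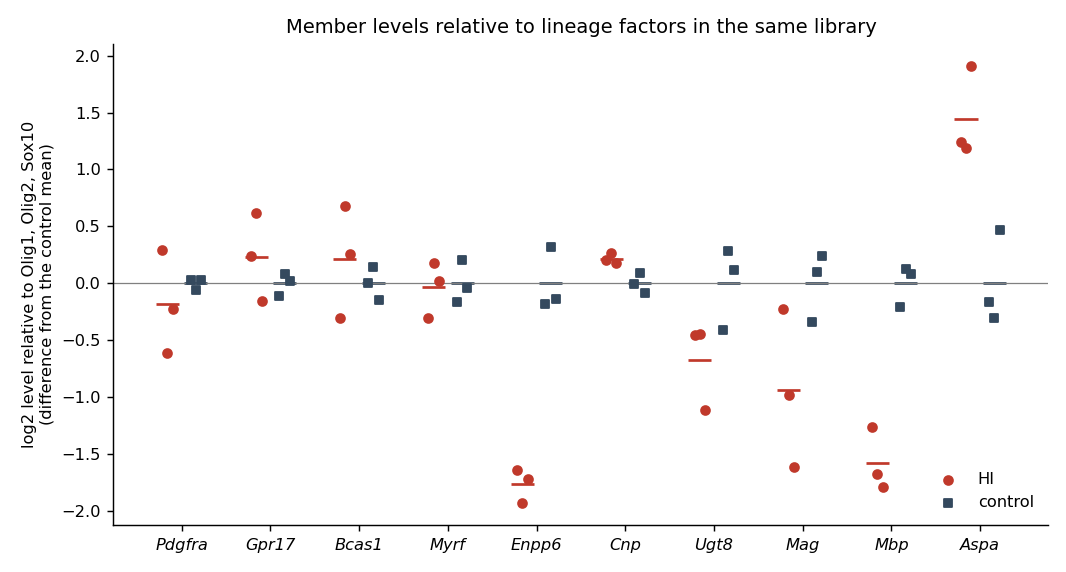
Log2 level of 10 members, chosen after their values were seen, relative to the geometric mean of Olig1, Olig2 and Sox10 in the same library, drawn as the difference from the control mean, with HI libraries as circles on the left and control libraries as squares on the right of each gene and lines at the group means. Enpp6 is at -1.76 and Mbp at -1.57, Cnp at 0.21 and Aspa at 1.45.

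The 3 genes of the axon-glia contact are shared with neurons. Nfasc, the neurofascin of nodes and paranodes, had 309, 285 and 199.7 CPM in HI libraries, against 400.3, 394 and 423 CPM in controls. The groups did not overlap, and the log2 fold change was -0.62 ± 0.17 (SE, edgeR adjusted p = 0.0594, DESeq2 adjusted p = 9.4e-03). Cntn2, an adhesion protein of the region beside the paranode and of young axons, had 110.4, 110.4 and 57.0 CPM in HI libraries, against 198, 147 and 115 CPM in controls (edgeR adjusted p = 0.141). Omg, a myelin-associated inhibitor of neurite growth made by neurons as well, averaged 44.0 ± 9.62 CPM in HI libraries and 57.3 ± 11.1 CPM in controls (SD, n = 3 each, edgeR adjusted p = 0.239).

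HI 3 was the lowest library for all 3 of these genes. It was also the lowest for the 13 neuron markers, which summed to 5589, 4648 and 3054 CPM in HI libraries, against 9514, 9565 and 8031 CPM in controls, with 5 of 13 called lower and 0 higher. No neuron marker was at 0. The part of neurons in the levels of Nfasc, Cntn2 and Omg was not tested.

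Transferrin, which supplies iron to oligodendrocytes and is secreted by them, appears in the table under the rat symbol Tf and was not matched by the name Trf. It was looked up after the data were seen. Tf had 55.4, 189 and 373 CPM in HI libraries, against 6.21, 17.1 and 6.66 CPM in controls. It rose 20.6-fold (log2 fold change 4.36 ± 0.80 SE, edgeR adjusted p = 0.0270), opposite in sign to Mbp. The epithelium of the choroid plexus makes transferrin too, and its 10 markers, led by Ttr, summed to 183, 8181 and 15341 CPM in HI libraries, against 16.8, 2182 and 7.86 CPM in controls. In each group the library highest for Tf was also highest for the sum, HI 3 among HI libraries and control 2 among controls. HI 1 had a lower sum of these markers than control 2 but a higher level of Tf. No choroid plexus marker was at 0 in all libraries. Of the 9 tested, edgeR and limma-voom called 0, DESeq2 called 1, and 1 had an edgeR p below 0.05 before adjustment. The part of this tissue in the Tf level was not tested.

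**Figure D4:**
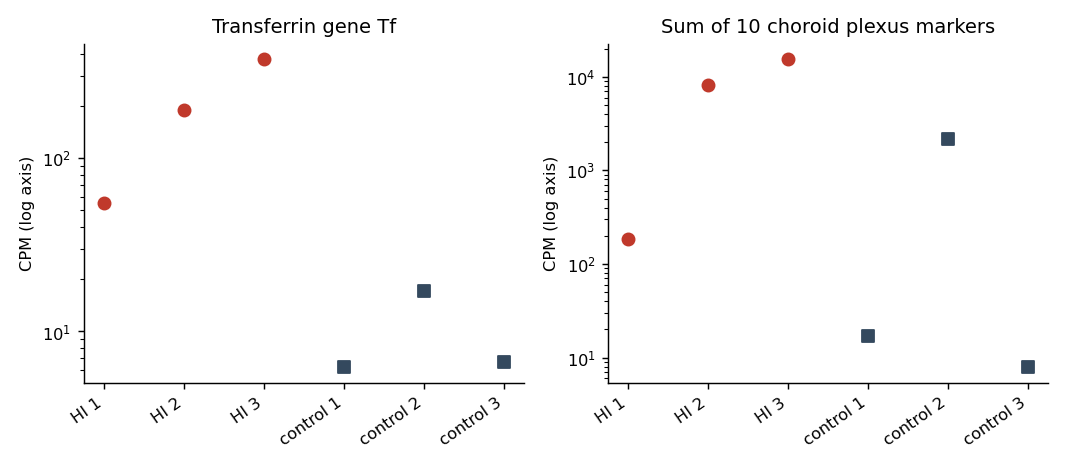
CPM of the transferrin gene Tf (left panel) and of the sum of 10 choroid plexus markers (right panel) in each HI library (circles) and each control library (squares), on log axes. HI 3 is highest in both panels at 373 and 15341 CPM, and control 2 is the highest control in both at 17.1 and 2182 CPM.

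Wider lists of genes of the same stages, which are not members and share no gene with them, showed a mixed picture as well. Of 16 further precursor genes 3 fell (18.8%, against 7.04% of all tested genes) and 0 rose. At an unadjusted p below 0.05 there were 7 lower and 0 higher, where 17.4% of all tested genes were lower and 19.1% higher. DESeq2 called 7 lower and 0 higher, where it called 13.6% of all genes lower and 13.2% higher. The limma-voom fit called 3 lower and 0 higher, where it called 5.47% of all genes lower and 3.69% higher. The log2 fold change was negative for 14 of the 16, with a median of -0.29, and 6 did not overlap with HI lower (20.8% of all tested genes). Those that fell were Xylt1, which starts the sugar chains of proteoglycans, Neu4, a sialidase whose reads may be shared with another gene, and Tnr, a matrix glycoprotein, with log2 fold changes of -0.52 ± 0.09, -0.79 ± 0.16 and -1.00 ± 0.25 (SE, edgeR adjusted p = 0.0244, 0.0317 and 0.0456). Of 13 neuron markers 11 did not overlap with HI lower, and the part of neurons in this precursor list was not tested. Of 12 further committed-stage genes 1 rose and 1 fell (8.33% each, against 6.83% of all tested genes higher and 7.04% lower). At an unadjusted p below 0.05 there were 2 higher and 3 lower, where 19.1% of all tested genes were higher and 17.4% lower. DESeq2 called 2 higher and 3 lower, where it called 13.2% of all genes higher and 13.6% lower. Arpc1b, a subunit of the actin-branching complex that macrophages also express, rose (log2 fold change 1.63 ± 0.38 SE, edgeR adjusted p = 0.0404), Rras2, a small GTPase, fell (-1.02 ± 0.19 SE, edgeR adjusted p = 0.0282), and Fyn, a kinase that promotes Mbp translation, did not pass (-0.43 ± 0.11 SE, edgeR adjusted p = 0.0530).

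Among 30 tested further myelin genes 5 rose (16.7%, against 6.83% of all tested genes) and 2 fell (6.67%, against 7.04%). The median log2 fold change was 0.33. At an unadjusted p below 0.05 there were 11 higher and 3 lower, where 19.1% of all tested genes were higher and 17.4% lower. DESeq2 called 10 higher and 3 lower, where it called 13.2% of all genes higher and 13.6% lower. The limma-voom fit called 3 higher and 2 lower, against 3.69% and 5.47% of all genes. Gsn, the actin-severing gelsolin, had 78.8, 109 and 192 CPM in HI libraries, against 26.1, 33.8 and 23.4 CPM in controls. Tmem63a, an ion channel of myelinating cells, had 3.95, 8.68 and 9.21 CPM in HI libraries, against 1.06, 1.25 and 1.57 CPM in controls. Both rose without overlap (log2 fold changes 2.19 ± 0.35 and 2.48 ± 0.40 SE, edgeR adjusted p = 0.0232 and 0.0235). Gsn and other genes of this list are made by astrocytes, microglia or vessel cells as well. Of 11 microglia markers 9 were called higher and 0 lower, and their sum ran from 356 to 597 CPM in HI libraries, against 144 to 210.4 CPM in controls. Of 11 astrocyte markers 3 were called higher, Gfap, Vim and Aqp4, and 0 lower, with 3 negative log2 fold changes. Their sum ran from 4066 to 6603 CPM in HI libraries, against 1564 to 2483 CPM in controls. The part of these cells in the list was not tested. Schwann cells also express Sox10 and myelin genes, and their 6 markers summed to between 23.1 and 48.5 CPM in HI libraries and between 17.0 and 26.7 CPM in controls. Of the 3 tested, edgeR and limma-voom called 0, DESeq2 called 1, and 1 had an edgeR p below 0.05 before adjustment.

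Of 41 tested genes that signal to the lineage or regulate its maturation, 5 fell (12.2%, against 7.04% of all tested genes) and 0 rose. At an unadjusted p below 0.05 there were 10 lower and 6 higher, where 17.4% of all tested genes were lower and 19.1% higher. DESeq2 called 10 lower and 4 higher, where it called 13.6% of all genes lower and 13.2% higher. The limma-voom fit called 5 lower and 0 higher, where it called 5.47% of all genes lower and 3.69% higher. Klf9, a thyroid hormone target that promotes differentiation, had 11.6, 15.6 and 16.7 CPM in HI libraries, against 49.8, 45.4 and 46.9 CPM in controls. Thra, a thyroid hormone receptor, had 489, 473 and 375 CPM in HI libraries, against 771, 856 and 717 CPM in controls, and Hdac2, a histone deacetylase, had 133, 135 and 134 CPM in HI libraries, against 202, 214 and 168 CPM in controls. None of the 3 overlapped, and their log2 fold changes were -1.69 ± 0.16, -0.81 ± 0.15 and -0.54 ± 0.11 (SE, edgeR adjusted p = 0.0196, 0.0270 and 0.0342). Most of these genes are also active in neurons and other glia, so the list does not isolate the lineage.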

How the data were processed

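Total RNA of 6 rat brain libraries was prepared, per the labels' protocols, with TRIzol and a SMARTER mRNA-Seq kit. The submitters' processing notes name HISAT2 2.1.0, SAMtools 1.10, StringTie 2.2.1 and the assembly Rnor 6.0. How reads were counted, and with which strand setting, is not stated in the sources used here. In the deposited table are unscaled estimated counts for 19382 genes, and 8.87% of entries differ from a whole number by over 1e-09, in 2410 genes that may share reads with others, including the members Pdgfra and Enpp6. Columns were matched to samples by name, with a letter missing in that of control 1.

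Estimated counts were rounded, filtered with filterByExpr (minimum count 10), scaled by TMM and compared in edgeR 4.0.16 under R 4.3.3 by a two-sided quasi-likelihood test with group as the only term and Benjamini-Hochberg adjustment over all 14959 tested genes and a threshold of 0.05. The SE of a log2 fold change was derived from the F statistic. The procedure was tested on simulated data. Depth ran from 13922663 to 14927469 reads, and floors cover counting error only, as amplified reads are not independent molecules. No 2 libraries were duplicates (chi-square per degree of freedom 13.4 to 162). Alternatives were other scalings, DESeq2 1.42.0, limma-voom (limma 3.58.1), other filters and thresholds, a replicate block, and fits without 1 library each. Promoter windows come from RefSeq by gene number, for assembly GRCr8, which is not the assembly of the counts. Members, lists, stages and tests were chosen with earlier results of these data known. Each member is named, and 3 genes with the smallest p from each wider list, except for a gene that is not reported here.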

Additional observations from a re-analysis of the deposited data

How the results depend on the processing

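The count of members called lower in HI was 2 by edgeR and 6 with DESeq2, and ran from 0 to 4 when 1 library was left out. It was 5 at an edgeR adjusted p below 0.1, a threshold at which the share of all genes is not given here. At an adjusted p below 0.01 it was 0. That count could not differ from 0, since the lowest edgeR adjusted p of any tested gene was 0.0196. Gjc3, which the main filter excludes, is among the 6 of DESeq2 and the 4 without HI 1. The count of members called higher was 0 in every fit run. The replicate numbers in the titles did not pair the libraries (correlations of same-numbered deviations 0.23, 0.08 and -0.16), and with the replicate block the count of members called lower was 3, with Cntn2 added (adjusted p = 0.0476, edgeR).

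With total counts in place of TMM the median of all genes shifted by 0.19 on the log2 scale. The precursor median then was 0.030 and the myelinating median -0.17, both still below the median of all genes, 0.23. Over the fits without 1 library the myelinating median ran from -0.51 to -0.24, the committed median from -0.39 to 0.03 and the precursor median from -0.30 to -0.03. Mbp and Enpp6 were lower in HI under every alternative run, though not always called. Sign changes were met in 8 members that no fit called, and the lowest adjusted p among the fits with a changed sign was 0.443. Over all alternatives the lowest adjusted p of these 8 was 0.0886, for Cldn11. Cspg4 had 0.081 with upper-quartile factors, 0.17 with total counts, 0.0067 with limma-voom and 0.0064 with the replicate block. Olig2 had 0.062 and Myrf 0.0026 with total counts. Cnp had -0.0011 with DESeq2 and -0.014 without the filter. Without 1 library in turn, log2 fold changes ran from -0.18 to 0.17 for Cspg4, -0.26 to 0.020 for Olig2, -0.25 to 0.22 for Gpr17, -0.22 to 0.43 for Bcas1, -0.39 to 0.031 for Myrf, -1.69 to 0.89 for Mobp, -0.10 to 0.16 for Cnp and -0.97 to 0.047 for Cldn11. The cause of these changes was not tested. Nkx6-2, Mobp, Opalin, Ermn and Gjc3 had under 10 reads in at least 1 library, which limits the precision of their values.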
